A study of Mus musculus with 2 samples.

Results

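Nkx6.1 ChIP-seq peaks at the Glis3 locus of mouse pancreatic islets are described here. Members were chosen by position alone: a listed peak belonged to the locus when its centre lay between 28.23 and 28.86 Mb of chromosome 19 (mm9), the Glis3 gene with about 100 kb on each side. This gave 17 of the 15239 peaks in the list, and 17 of the 462 on chromosome 19. The locus was put forward with this peak list in view, so the number, spacing and strength of its peaks are given as a description, with no test.

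One set of islets taken from a mouse gave 1 chromatin immunoprecipitation library, made with an antibody to Nkx-6.1 (C57Bl/6 genetic background), and 1 input library, whose labels give no antibody and no background. The labels name no treatment, age or genotype. Islets hold several endocrine cell types, and the peak list does not say in which cells a site was bound; no expression was measured, so the tissue label was not checked against marker genes. With 1 library in each group no value has a replicate check. All intervals below are at 95%, and those of tags, folds and tag ratios cover counting error only. They treat each tag as an independent count, although up to 10 tags per position were considered, so they may be too narrow. Those of medians, shares and peak densities treat the listed peaks as independent units. None measures variation between libraries or animals. The ChIP library held 202780986 tags, of which 0.827% lay in peaks per the header.

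Glis3 encodes a Krüppel-like zinc finger transcription factor. It is known for its part in the formation of pancreatic endocrine cells and in insulin gene transcription, and loss of its function causes neonatal diabetes with hypothyroidism in people. Nkx6.1 is a homeodomain factor of beta cells, and homeodomain proteins bind short sites with a TAAT core. ChIP-seq counts the DNA fragments that come down with the factor, and a peak is a short stretch where these tags pile up over their surroundings and over input, which is chromatin sequenced without the antibody step.

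Glis3 is read from the minus strand, so the promoter of its long form lies at the high-coordinate end. In mm9 the gene spans about 28.33 to 28.75 Mb of chromosome 19, a span of 420 kb whose ends are given only to the nearest 10 kb. Distances are given below from that high end, inward along the gene. In the RefSeq gene table of another assembly (GRCm38.p6), used here for names and neighbours only, the next protein-coding genes are Rfx3 beyond the low end, which encodes a transcription factor of the regulatory factor X family, and Slc1a1 beyond the high end, which encodes a glutamate transporter. The noncoding RNA D930032P07Rik overlaps the high end on the opposite strand, and a shorter noncoding RNA, Gm35866, lies inside the gene. Peaks at the high end can therefore not be assigned to Glis3 rather than to D930032P07Rik, and the list itself pairs no peak with a gene.

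The largest group of neighbouring peaks lay across the approximate high end, so the RefSeq sequence before both starts there is shown. It is printed 5′ to 3′ on the strand of each RNA, with each CG dinucleotide in capitals. The Glis3 stretch is chr19:28680078-28680327 on the minus strand and the D930032P07Rik stretch is chr19:28677974-28678223 on the plus strand, both in GRCm38.p6, whose coordinates cannot be set against the mm9 positions of the peaks.
Glis3: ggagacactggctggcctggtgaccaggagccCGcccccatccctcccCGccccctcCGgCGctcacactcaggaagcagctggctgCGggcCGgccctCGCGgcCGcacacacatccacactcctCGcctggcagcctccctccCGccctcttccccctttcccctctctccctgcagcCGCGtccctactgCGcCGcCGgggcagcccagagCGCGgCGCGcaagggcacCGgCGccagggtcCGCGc
D930032P07Rik: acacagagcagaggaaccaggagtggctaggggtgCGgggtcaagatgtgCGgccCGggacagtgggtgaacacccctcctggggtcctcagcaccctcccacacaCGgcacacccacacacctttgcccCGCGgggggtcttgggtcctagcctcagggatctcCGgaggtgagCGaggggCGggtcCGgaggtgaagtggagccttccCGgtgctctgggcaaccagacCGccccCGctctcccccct
The 250 bases before the Glis3 start hold 24 CG dinucleotides at 75.6% GC, and those before D930032P07Rik hold 13 at 68.4% GC. Over the table's whole promoter window, which runs from 250 bases before to 50 after the start, Glis3 has 32 CG dinucleotides, against a median of 7 over 32851 promoters, of which 9.52% hold as many or more. The letters TAAT, read on both strands, are in neither window, while 58% of the promoters hold them. The Glis3 window is 76.3% GC, against a median of 52.7%, and only 2.89% of promoters are as GC-rich, so these promoters differ in base composition from Glis3. TAATTA, which contains TAAT, is in neither either, against 5.29% of promoters. These counts describe the windows only, and whether a peak overlaps either window is not known without mm9 sequence.

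Along the gene, 12 peaks lay inside the span, 3 beyond its high end and 2 beyond its low end. The peaks formed 3 clusters of 2 or more, linked at no more than 10 kb between centres, and 6 single sites. From the low end upward these were 2 single sites beyond the gene, a cluster of 3 peaks 365.7 to 369.8 kb inside the high end, 3 single sites across the middle, a pair and a cluster of 6 close to the high end, and 1 single site beyond it. The side of the high end on which a peak fell was not resolved for the 4 peaks within 10 kb of it.

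**Figure D1:**
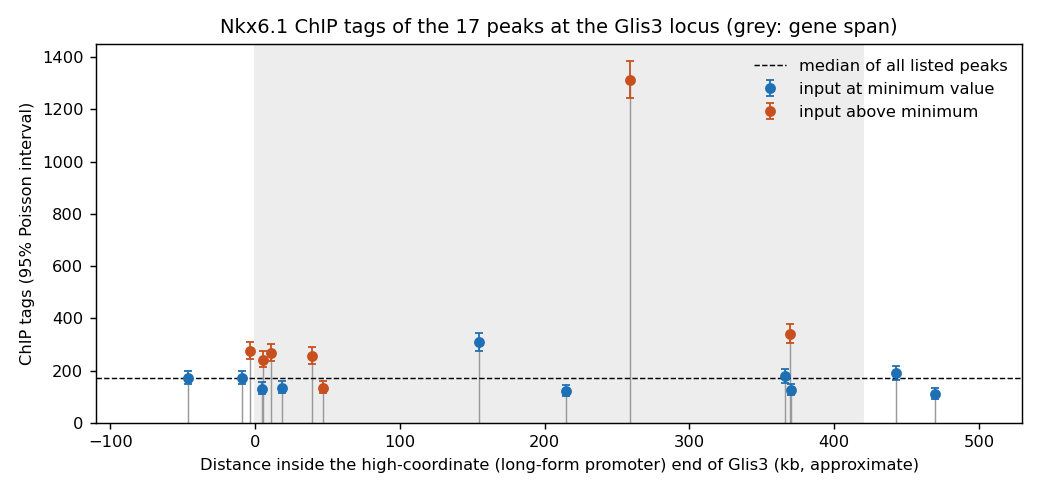
ChIP tags (vertical axis, with 95% Poisson intervals) of each of the 17 peaks against distance in kb inside the approximate high end of Glis3 (horizontal axis; negative values lie beyond it; the grey band is the gene span). One peak of 1313 tags stands 258.7 kb inside the high end, while the others lie between 112 and 340 tags around the dashed median of 172 for the whole list; orange marks input above the minimum value and blue input at it.

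The strongest site of the locus lay inside the gene, on the low-coordinate side of its approximate centre at 28.54 Mb. The peak at 28491193 to 28491325, 258.7 kb inside the high end, held 1313 ChIP tags (95% Poisson interval 1243 to 1386) against 49 input tags. Its deposited fold over input was 21.12 (exact conditional interval 15.9 to 28.7), and its deposited fold over the surrounding 10000 bp was 76.64. By ChIP tags and by the caller's score it was the highest of the 462 peaks of chromosome 19, where the highest peak outside the locus had 963 tags. By score it ranked 23 in the whole list, and by local fold 12, whereas by fold over input it ranked 301 in the list and 6 on its chromosome. It had the highest input of the locus as well as the most ChIP tags. It stood alone, with the nearest peaks 107 kb away toward the low end and 43.76 kb away toward the high end. Its tags made up 29.35% of the 4474 ChIP tags summed over the 17 peaks, and were 3.86 times (3.42 to 4.36) those of the peak with the next most tags.

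The other single sites inside the gene were of unequal strength. The peak at 28595379 to 28595511, 154.6 kb inside the high end, held 308 tags (275 to 344) with input at 21.4, the lowest value in the list, which is read as a floor set by the caller for any lower count. Its fold over input was 11.33 (10.1 to 12.7), the highest deposited fold of the locus after the strongest site. Input at the minimum means that the true input count may be lower, so such a fold is a lower limit and its interval carries the ChIP count only. The peak at 28534953 to 28535085, 215.0 kb inside, was near the caller's limit of 4-fold, with 122 tags (101 to 146) and a fold of 4.49 (3.73 to 5.37). The tag intervals of these sites did not overlap each other, nor that of the strongest.

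A compact group of 3 peaks lay toward the low end, which is the end of the gene where transcription stops. It spanned 4.2 kb and summed to 644 ChIP tags. Its main peak, at 28380616 to 28380748, held 340 tags (305 to 378) over 33 input tags and stood 8.12-fold (5.67 to 11.99) over input. The peak at 28380143 to 28380275, whose centre was 473 bp from the main one, held 126 tags (105 to 150) and reached 4.64-fold (3.87 to 5.53). The third, at 28384209 to 28384341, held 178 tags (153 to 206) and reached 6.55-fold (5.63 to 7.59). By ChIP tags the main peak stood above both neighbours beyond counting error, while the order by fold was not resolved, since both neighbours had input at the minimum and so only a lower limit.

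Beyond the low end, outside the gene, were 2 single peaks. The one at 28307391 to 28307523 held 189 tags (163 to 218) at 6.96-fold (6.00 to 8.03). The outermost, at 28280279 to 28280411, held 112 tags (92.2 to 135) at 4.12-fold (3.40 to 4.96), the lowest tags, score and deposited fold of the locus. It was close to the bottom of the list itself, whose lowest peak has 109 tags.

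Near the high end lay a pair and a cluster of 6, of middling strength. The pair and the cluster of 6 placed 8 of the 17 peaks, or 47.1%, in 55.98 kb, or 8.89% of the window. That stretch is bounded by the peaks themselves, so these shares describe it and measure no excess. The pair began with the peak at 28703278 to 28703410, which held 134 tags (112 to 159) over 22 input tags, and reached 4.80-fold (3.04 to 7.92). Its partner at 28710796 to 28710928 held 256 tags (226 to 289) over 29 input tags, and reached 6.96-fold (4.73 to 10.6). The fold intervals of the pair overlapped, although their ChIP tags differed beyond counting error.

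The cluster of 6 ran from 28731403 to 28759260, 27.86 kb in all, across the approximate high end of the gene. Its first peak inside the gene, at 28731403 to 28731535 and 18.5 kb from the high end, held 134 tags (112 to 159) at 4.93-fold (4.14 to 5.85). The next, at 28739187 to 28739319 and 10.7 kb inside, held 269 tags (238 to 303) over 26 input tags and stood 8.16-fold (5.45 to 12.7) over input. A close pair followed about 5 kb inside the high end, with centres 447 bp apart, the shortest gap of the locus. Its main peak at 28744603 to 28744735 held 242 tags (212 to 274) over 33 input tags, at 5.78-fold (4.01 to 8.59). Its partner at 28745050 to 28745182 held 131 tags (110 to 155), at 4.82-fold (4.03 to 5.73).

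On the far side of the approximate end, the peak at 28753794 to 28753926 held the most tags of the cluster, 276 (244 to 311) over 27 input tags, at 8.06-fold (5.42 to 12.4). The last, at 28759128 to 28759260, held 172 tags (147 to 200) at 6.33-fold (5.42 to 7.36). The peaks with 242, 269 and 276 tags stood apart from those with 131, 134 and 172, and the tag intervals of the former did not overlap those of the latter. By deposited fold over input the cluster ran from 4.82 to 8.16. Input was above the minimum for 3 of its peaks, so the other folds are lower limits. In ChIP tags no site of the cluster approached the strongest peak. A single peak further out, at 28796483 to 28796615 and 46.5 kb beyond the high end, had the same 172 tags and 6.33-fold as the last peak of the cluster.

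**Figure D2:**
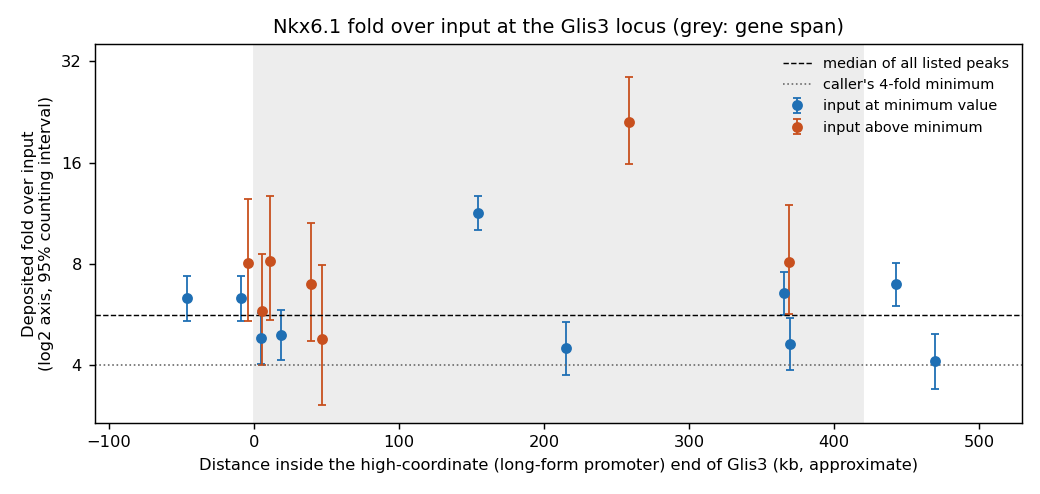
Deposited fold over input (vertical log2 axis, with 95% counting intervals) of the 17 peaks against distance in kb inside the approximate high end of Glis3 (horizontal axis; grey band, gene span). The folds near the high end lie between 4.80 and 8.16, the strongest site stands at 21.12, and the dashed and dotted lines mark the median of 5.63 over the list and the caller's minimum of 4; for blue points, with input at the minimum, the interval carries the ChIP count only.

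In strength the Glis3 peaks were like the list as a whole, apart from the strongest. Their median was 178 ChIP tags (order-statistic interval 134 to 269), against 172 over all peaks, and 9 of 17 were above that value. From the column normalized by the authors the median was 95.3 tags (73.0 to 125.7), and why the columns differ was not tested. Their median fold over input was 6.33 (4.82 to 8.06), against 5.63 in the list. At 5-fold or more there were 11 of 17 Glis3 peaks, or 64.7%, against 64.5% of all peaks. At 8-fold or more there were 5, or 29.4%, against 24.1%, and at 20-fold or more 1, against 2.32%. The shares at 5-fold and 8-fold were thus near those of the list. Input was above the minimum for only 7 of the 17 Glis3 peaks and 32.9% of the list. Most of these folds are therefore lower limits that follow the ChIP tags, and they add little to the comparison by tags. Over the local region the median was 9.33-fold against 9.94, and 7 of the 17 were above the list's median.

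The locus differed from most others in its number of peaks, which was known when it was put forward. The window held 27.0 peaks per Mb (exact Poisson interval 15.7 to 43.2), against 7.75 (7.05 to 8.51) over the rest of chromosome 19, a ratio of 3.48 (2.01 to 5.64). Against the rest of the autosomes, at 6.28 per Mb, the ratio was 4.30 (2.50 to 6.89). Of 3905 autosomal windows of the same 630 kb tiled end to end, 27, or 0.691%, held 17 peaks or more, the fullest held 23 and the median held 3. With the tiles shifted by 315 kb 18 of 3893 did, or 0.462%. A locus this full of peaks was thus uncommon but not alone. The windows were not corrected for sequence to which tags cannot be aligned.

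**Figure D3:**
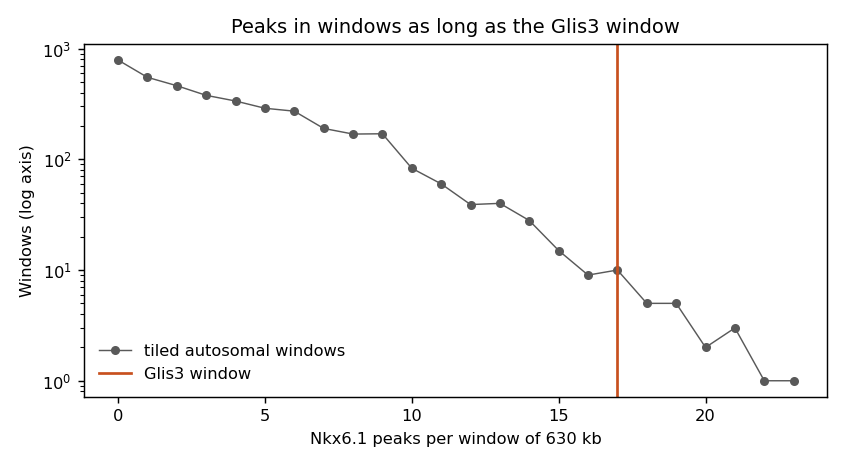
Number of tiled autosomal windows of 630 kb (vertical log axis) that hold each number of Nkx6.1 peaks (horizontal axis), with the Glis3 window marked at 17 by the orange line. Counts fall from 788 windows with no peak to single windows at 22 and 23, and 27 windows lie at or to the right of the line.

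Spacing within the locus was uneven. The 16 gaps between neighbouring centres had a median of 14.7 kb and ran from 447 bp to 107.9 kb, against a median gap of 62.5 kb over the list. Of the 17 peaks, 11 had another centre within 10 kb, or 64.7% (exact Clopper-Pearson interval 38.3 to 85.8), against 28.1% of nuclear peaks. This contrast depended on the distance: within 5 kb the share was 29.4% (10.3 to 56.0) against 18.4% in the list. Within 25 kb it was 64.7% (38.3 to 85.8) against 48.4%. Neighbours count each other, so the peaks are not independent trials and these intervals serve as no test. Peaks in a fuller window also lie closer together, so the share is not separate from the number of peaks. Of the 16 gaps, 8 were no longer than 10 kb, and 2 were under 1 kb, against 3.52% of gaps in the list. Another 2 exceeded 100 kb, one on the low side of the strongest site and the other between the site at 28595379 and the pair near the high end. The list holds 1919 clusters of 2 or more peaks, of which 5, the one at Glis3 included, have 6 or more. The nearest peaks just outside the window were at 28191909 to 28192041, with 474 tags and 16.98-fold, and at 28991144 to 28991276, with 340 tags and 12.51-fold. They lay 88.37 and 194.7 kb from the outermost peaks of the locus, and both had more tags than those outermost peaks.

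Each close pair sat within a single local region, since neighbours under 1 kb apart share most of the 10000 bp from which the local background is taken. The weaker partners of both pairs had the lowest local folds of the locus, 4.70 and 4.71, and no other Glis3 peak was under 5, against 2.09% of the list. Their stronger partners had local folds of 14.23 and 9.14. The part that the shared region plays in the low local folds was not tested. Joining peaks under 1 kb apart left 15 sites at the locus.

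Peak shape and input also varied along the gene. The focus ratio is the caller's measure, from 0 to 1, of how well tags of each strand sit on the proper side of the peak centre, and a sharp single site scores high. Within 50 kb of the high end, on either side, 6 of 9 peaks had a focus ratio under 0.717, the lower quartile of the list, below which 24.7% of all peaks lie; none of the other 8 Glis3 peaks did. The low values near the high end ran from 0.636 to 0.695. The exceptions there were the peak at 28753794 to 28753926, at 0.890, and the pair at 28703278 and 28710796, at 0.794 and 0.780. The strongest site had a focus ratio of 0.906, the highest of the locus. The median was 0.693 near the high end and 0.792 elsewhere. The quartile and the 50 kb limit were chosen after these values were seen.

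**Figure D4:**
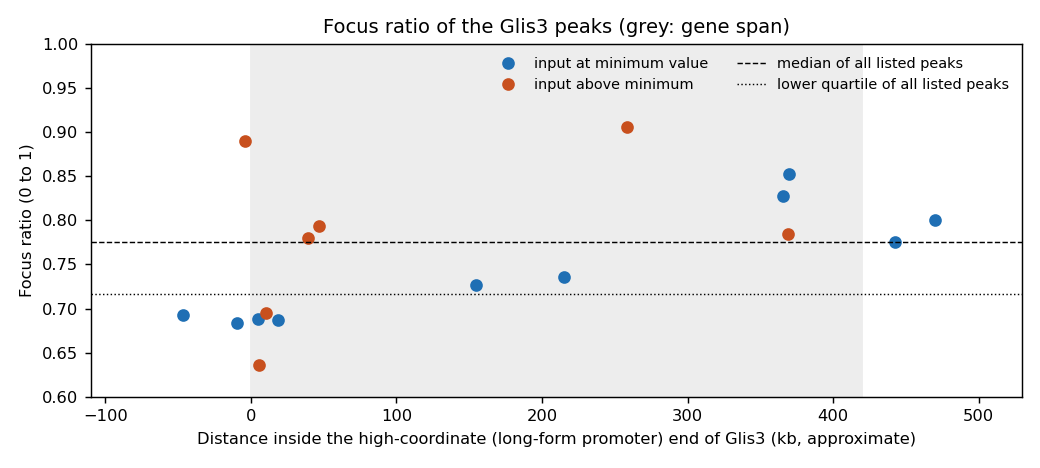
Focus ratio (vertical axis, a fraction) of the 17 Glis3 peaks against distance in kb inside the approximate high end (horizontal axis; grey band, gene span; colours by input level), with the list's median of 0.775 (dashed) and lower quartile of 0.717 (dotted). The 6 points below the dotted line all lie within 50 kb of the high end, where 3 other peaks stand above it.

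Input tags were above the minimum value for 7 of 17 peaks, or 41.2% (18.4 to 67.1), against 32.9% of the list. Near the high end this held for 5 of 9 peaks, with 22 to 33 input tags, and elsewhere for 2 of 8, with 33 tags at the main peak of the group of 3 and 49 at the strongest site. The peaks within 50 kb of the high end summed to 1786 ChIP tags, or 39.9% of the locus, in 15.9% of the window. Their median was 172 tags and 6.33-fold, against 183.5 tags and 6.755-fold (median) for the other 8, so by these medians the peaks near the high end were not the stronger ones. The 50 kb limit was chosen after the peaks were seen. The part that input level, peak shape or the caller's filters play in the grouping was not tested.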

How the data were processed

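Tags were counted in 1 Nkx6.1 ChIP and 1 input library, and the authors deposited 1 peak list. Peaks were called with HOMER findPeaks in factor style, per the file headers. The submitters' processing notes name mm9 and Bowtie, without versions. A listed peak is 133 bp long and had at least 4-fold over input and over 10000 bp around it, with at most 10 tags per position considered, per the file headers. The deposited normalized tag signal is scaled to 10000000 tags. A further deposited signal, the ChIP tags set against input, comes in steps of 0.788. Its values divided by the step were whole to within 0.1 for 100% of peaks and are the ChIP tags given here. No header states the width over which they were counted, so close peaks may share tags. The deposited input signal has a minimum of 21.4. The fold over input, over the local region and the clonal fold are deposited ratios, the focus ratio is a deposited fraction, the score is the authors', and the deposited p-value, a Poisson p, was used only as a filter.

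Peaks were assigned to the locus by centre. Tags carry exact Poisson intervals, shares exact Clopper-Pearson intervals and medians order-statistic intervals, at 95%. Folds carry exact conditional binomial intervals where input was above the minimum. Where input was at the minimum, the Poisson interval of the ChIP tags was set over that fixed value. Densities use the distance from the first to the last peak of a chromosome. The scripts were tested on simulated peaks. Python 3.11.15, scipy 1.17.1, pandas 2.3.3, matplotlib 3.10.9 and numpy 2.4.6 were used. Other flanks, fold, score and p limits, neighbour distances and joined peaks were tried as alternatives. The locus and the list of comparisons were chosen with earlier results of these data known. The naming rule was the 6 peaks with the highest score, the largest cluster, the lowest, the outermost and those with input above the minimum; the remaining peaks were also described, by position. Exon and intron positions, motifs inside the peaks and other islet gene loci, which need mm9 sequence or genes, were not analysed here. The promoter sequences are from RefSeq (GRCm38.p6), where Glis3 matched 1 entry.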

Additional observations from a re-analysis of the deposited data

How the results depend on the processing

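The number of Glis3 peaks followed the threshold. Of 17, 11 remained at a deposited p under 1e-50, for which the list's share is not given here. Above 175, the median score, 9 remained, against 7537 of 15239 in the list. At 8-fold or more over input 5 remained, or 29.4%, against 24.1% of the list. With input above the minimum, a setting chosen after the data were seen, 7 remained, or 41.2%, against 32.9%. Without flanks 12 were counted, with flanks of 200 kb 18, and with peaks under 1 kb apart joined 15. The density ratio to the rest of chromosome 19, 3.48, ran from 3.21 (1.78 to 5.35) with close peaks joined to 4.32 (1.37 to 10.4) at 8-fold or more. The last rests on 5 peaks. The number of peaks was known when the locus was put forward, so a ratio above 1 in each setting is no test. The share with a neighbour fell from 64.7% within 10 kb to 29.4% (10.3 to 56.0) within 5 kb, where the list had 18.4%. Within 25 kb it was 64.7% against 48.4% in the list, and with close peaks joined 60% against 22.9%. The median fold over input of 6.33 was 6.098 with 1 tag added to each side and 8.06 for the members whose input exceeded the minimum. Over the local region the median fold, a different quantity, was 9.33. The median of 178 ChIP tags was 95.3 when taken from the column normalized by the authors; the cause was not tested. No paired analysis was possible because there is a single library of each kind. Per the header, the caller asked for 31 tags at first and found 885361 putative peaks, of which its input filter removed 869984. Removed sites at Glis3, if any, are not in the list. The list starts at 109 ChIP tags, but the width over which these were counted is not stated. The 109 can therefore not be set against the 31.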
